A study of Mus musculus with 10 samples.

Results

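Ribosomal proteins and the factors that start, regulate and extend translation were represented by 55 of the 5030 probes on the mouse array. The probes were taken by gene symbol: those beginning with Rpl, Rps and a digit, Rpsa, Mrpl, Mrps, Eif and a digit, Eef and a digit, Naca or Btf3, without the Rps6k kinases. They name 52 genes, since Rps29 had 3 probes and 1 probe is listed with both Rpl12 and Snora65, so that no gene is named from it. By role, 19 probes stood for the large and 16 for the small subunit of the cytosolic ribosome, 4 for the mitochondrial ribosome, 7 for initiation factors, 6 for regulators of initiation, 2 for elongation factors or their kinase and 1 for Naca, which binds nascent chains.

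The study asked which genes of the inflamed bladder depend on PAR1, the thrombin receptor, and measured RNA from whole urinary bladders of female PAR1-/- mice and of C57BL/6J mice as wild type (WT). The bladders were instilled with LPS, the lipopolysaccharide of Gram-negative bacteria, at 100 µg/ml, with the neuropeptide substance P (SP), or with saline. The arrays were 1 per condition, each hybridized with radioactively labelled cDNA of 8 bladders pooled, from 24 and 4 h after LPS or SP and from 24 h after saline in each genotype, 10 in all. The sample descriptions give SP at 20 µM for PAR1-/- mice and 10 µM for WT mice, whereas the study's methods give the same dose for both genotypes, so whether the dose differed between the genotypes is not settled. Saline was taken at 24 h only, so the ratios at 4 h are against saline at 24 h, and no value has an error from replicate pools. The PAR1-/- mice lack the receptor in all tissues, and the whole bladder mixes cell types. Fewer cells of a type and less RNA per cell cannot be told apart here.

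The ribosome is built from a small and a large subunit, each an assembly of ribosomal RNA and of proteins made in near equal numbers. Initiation factors bring the small subunit to the capped mRNA, and kinases of eIF2 and the 4E-binding proteins slow this step under stress or low growth signals. Elongation factors then carry the ribosome along the message. Many mRNAs of ribosomal proteins start with a C followed by a run of C and T, the 5′ terminal oligopyrimidine (TOP) tract, through which their translation is set by growth signals. In most tissues these mRNAs are among the abundant ones.

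The TOP tract is a feature the choice by symbol did not use, so the starts of the member genes were read from the RefSeq promoter table (GRCm38.p6), which matched 43 of the 52 genes with 51 starts. A C exactly at the annotated start, followed on the same strand by at least 4 bases that are each C or T, was present at 4 member starts (7.84%), against 2.51% of all 32851 starts in the table. These were in Rps6, Rps18, Rpl28 and Eif2s3x. The 30-base windows below hold 10 bases before the start and 20 from it, with the unbroken run of C and T from the start in capitals. The first 4 carry the tract, and the other 4, shown because the results turn on these genes, begin with A or G. A window without the tract says only that these letters are not at the annotated start. The windows lie at chr4:86857348-86857377 (minus strand, Rps6), chr17:33955646-33955675 (minus, Rps18), chr7:4792955-4792984 (plus, Rpl28), chrX:94212632-94212661 (minus, Eif2s3x), chr19:60790674-60790703 (minus, Eif3a), chr10:128035336-128035365 (plus, Naca), chr9:120127756-120127785 (plus, Rpsa) and chr11:68901556-68901585 (plus, Rpl26).
Rps6: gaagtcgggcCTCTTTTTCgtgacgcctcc
Rps18: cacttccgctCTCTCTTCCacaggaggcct
Rpl28: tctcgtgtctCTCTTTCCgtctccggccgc
Eif2s3x: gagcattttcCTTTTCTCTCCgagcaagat
Eif3a: ctcgggcggcggcgctgccgccgcgaggga
Naca: tcgttctcttaaagaggaaacccggacgcc
Rpsa: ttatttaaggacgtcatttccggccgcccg
Rpl26: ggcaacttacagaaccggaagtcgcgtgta

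The arrays differed in brightness and in how much of them could be read. Spot intensities, recovered as whole numbers for 4925 of 5030 probes and for all 55 members, had medians of 15 to 23 on 7 of the challenged arrays, against 10 and 11 on the saline arrays of PAR1-/- and WT bladders. The WT array of SP at 24 h, with a median of 10, was as dim as saline. On the WT LPS 24 h array, 86.9% of the probes and 46 of the 55 members held the single value 15, so that only 7 members were above background there. All 6 smooth muscle markers measured were above background on at least 4 arrays, as were 2 of 3 urothelial, 3 of 7 leukocyte and 0 of 3 endothelial markers.

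The signal of the members did not stand out from the array, which goes against the abundance known for these mRNAs. The threshold for being above background was set, on each array, at the mode of its values plus 3 SD, with the SD taken from the values below the mode. Of the 55 members, 18 (32.7%) were under background on all 10 arrays, against 33.1% of all probes. Another 25 (45.5%) were above it on at least 4 arrays, against 41.3% of all probes, and 4 were above it on all 10. The median member lay at the 45.2nd percentile of mean normalized level among all probes, whereas 12 probes of other abundant mRNAs, such as Actb and Gapdh, had a median percentile of 72.9. The roles differed among themselves. The small subunit had a median percentile of 70.6 with 2 of 16 probes under background on every array, and the large subunit one of 42.9 with 9 of 19. The RNA probes of proteins made in near equal numbers thus had mean normalized levels of 10.8 for Rps7 to 53.5 for Rps24 in the small subunit. In the large one they ran from 11.2 for Rpl10a to 52.5 for Rpl30. Rps7 and Rpl10a were under background on all 10 arrays, so these low ends are background values. Probe length and labelling were not part of these values, so levels of different probes are set side by side only as a check of the probes.

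**Figure D1:**
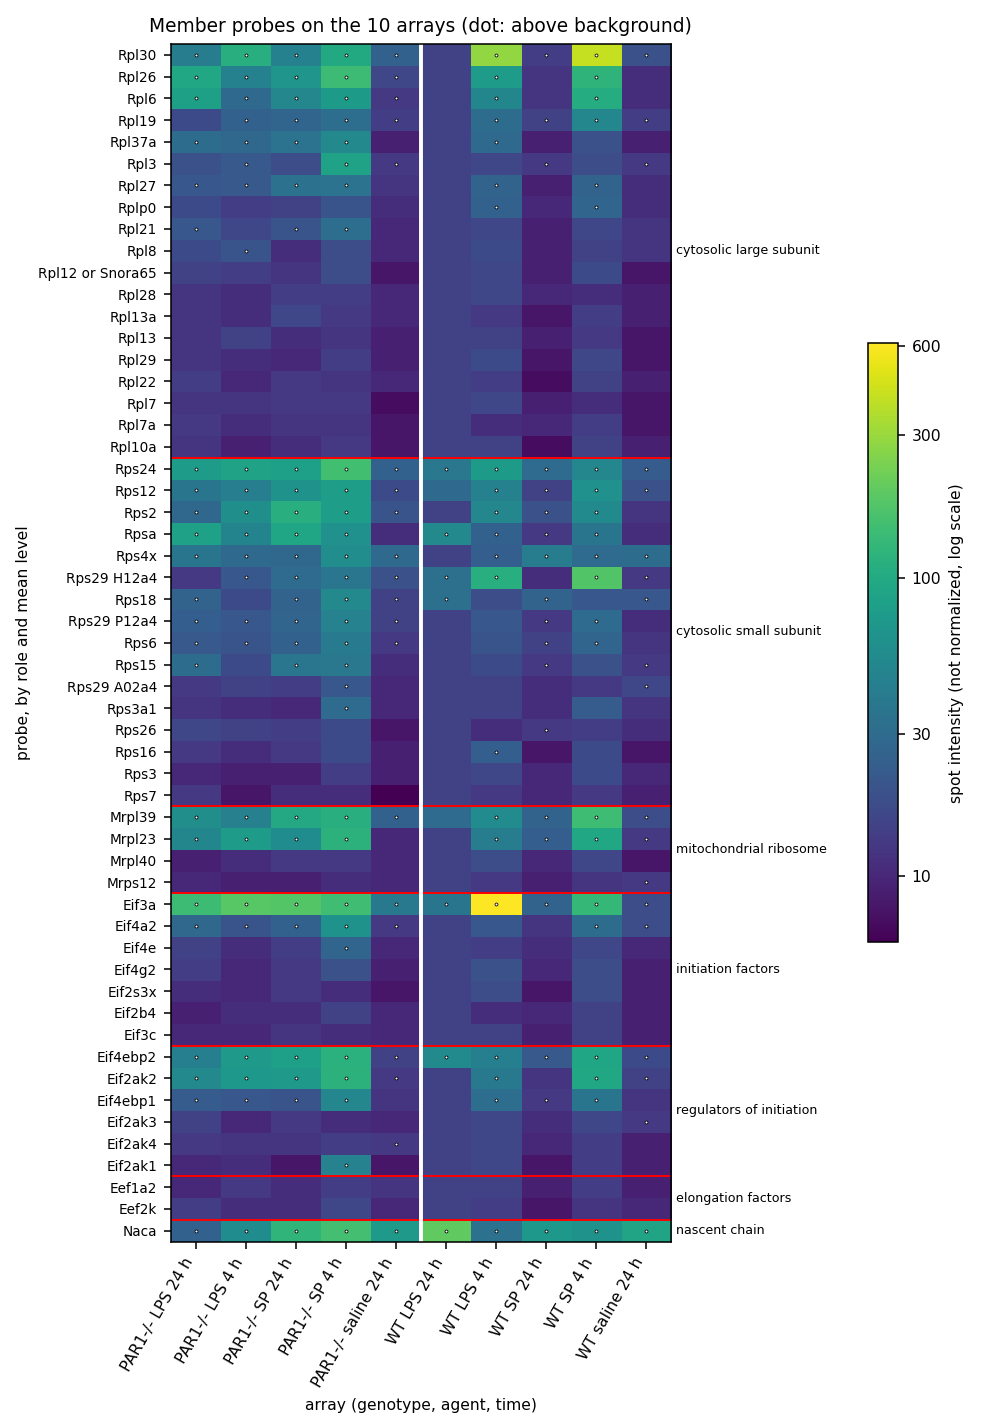
Spot intensity (not normalized, colour on a log scale) of the 55 member probes on the 10 arrays, PAR1-/- bladders left and WT bladders right, with rows grouped by role and sorted by mean level; a dot marks a value above the background of its array. 25 of the 55 probes were above background on at least 4 arrays, and the column of WT bladders 24 h after LPS is nearly uniform because 46 members hold the value 15 there.

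**Figure D2:**
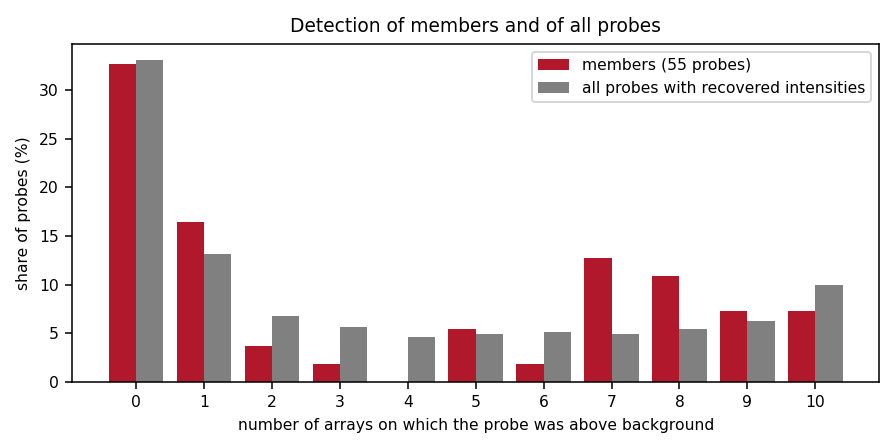
Share of probes (percent) by the number of arrays, from 0 to 10, on which they were above background, for the 55 members and for all 4925 probes with recovered intensities. 32.7% of the members and 33.1% of all probes were above background on no array.

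Eif3a, a core subunit of the eIF3 complex that assembles the initiation machinery on the small subunit, had the highest mean level of the members. Its intensities in PAR1-/- bladders were 143, 183, 177, 147 and 39 after LPS at 24 h, LPS at 4 h, SP at 24 h, SP at 4 h and saline. In WT bladders they were 36, 611, 26, 131 and 18 on the arrays of the same order. WT bladders 4 h after LPS thus held the highest value of any member on any array, while the 4 challenged PAR1-/- arrays lay within a narrow band. After normalization between arrays, Eif3a was between 0.60- and 1.41-fold its saline level in the 4 PAR1-/- comparisons, and 18.1-fold in WT bladders 4 h after LPS. Before normalization these were 3.67- to 4.69-fold and 33.9-fold. In the other WT pools the normalized ratio was far lower, at 2.0 (SP 4 h), 1.54 (SP 24 h) and 1.07 (LPS 24 h). The last of these lay within the PAR1-/- range, so the large WT excess rests on a single array. Against the mean of both saline arrays the log2 ratio in WT bladders 4 h after LPS was 3.41, in place of 4.18 against WT saline. The PAR1-/- saline array was already 2.91-fold the WT saline array, the highest ratio of a member between the saline arrays.

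The other initiation factors were dimmer. Eif4a2, an RNA helicase of the cap-binding complex, ranged from 20 to 63 on the challenged PAR1-/- arrays against 13 after saline, and from 12 to 31 on the challenged WT arrays against 18 after saline. Eif4e, which binds the mRNA cap, was above background on 1 array only, with 27 in PAR1-/- bladders 4 h after SP. Eif4g2, Eif2s3x, Eif2b4 and Eif3c were under background on all 10 arrays. Eif3c belongs to the same complex as Eif3a, and its intensities ran from 9 to 15.

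Rpl30, a protein of the large subunit, was also high in WT bladders at 4 h. In PAR1-/- bladders its intensities were 42, 111, 46, 99 and 25 after LPS at 24 h, LPS at 4 h, SP at 24 h, SP at 4 h and saline. In WT bladders they were 15 (under background), 290, 14, 406 and 19. Before normalization both agents at 4 h gave the high values in both genotypes, and the 24 h values lay below the 4 h values in all 4 pairs. The normalized ratio over saline at 4 h was 1.59 for LPS and 0.75 for SP in PAR1-/- bladders, and 7.99 and 5.09 in WT bladders. Before normalization these were 4.44 and 3.96, and 15.3 and 21.4. At 24 h the normalized ratio was 0.70 for each agent in PAR1-/- bladders, beside the 0.75 of SP at 4 h. In WT bladders at 24 h it was at most 0.88 after LPS and 0.68 after SP.

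**Figure D3:**
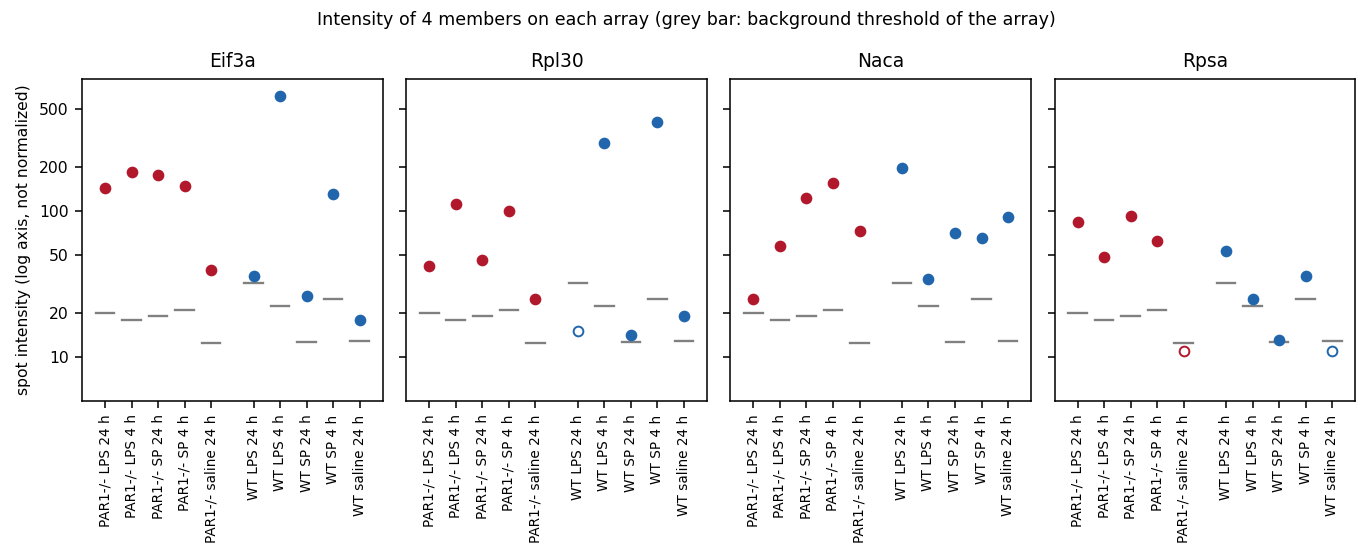
Spot intensity (log axis, not normalized) of Eif3a, Rpl30, Naca and Rpsa on each array, PAR1-/- bladders in red and WT bladders in blue; filled points are above and open points under the background threshold of the array, drawn as a grey bar. Eif3a reaches 611 in WT bladders 4 h after LPS, Rpl30 reaches 290 with LPS and 406 with SP at 4 h in WT bladders, Naca is highest at 197 in WT bladders 24 h after LPS, and Rpsa is under background in both saline pools.

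Rpl26 and Rpl6, also of the large subunit, were under background after saline in WT bladders and bright after either agent at 4 h. Rpl26 had 95, 46, 67, 142 and 16 in the LPS 24 h, LPS 4 h, SP 24 h, SP 4 h and saline pools of PAR1-/- bladders, and 15, 76, 12, 121 and 11 on the WT arrays. Its 4 PAR1-/- ratios were between 1.28 and 2.46, whereas in WT bladders at 4 h the ratio was at least 3.31 for LPS and at least 2.82 for SP. The bound for LPS fell under 3-fold with arrays shifted to the same median (log2 1.27), with both saline arrays as reference (1.48) or with a common floor (1.23), the highest background threshold applied to all arrays, an alternative chosen after seeing the data. Rpl6 had 83, 29, 51, 75 and 13 in PAR1-/- bladders and 15, 50, 12, 105 and 11 in WT bladders. None of its ratios passed 3-fold: the highest were 2.85 in PAR1-/- bladders 24 h after LPS and a lower bound of 2.49 in WT bladders 4 h after SP. The remaining large subunit probes had intensities of at most 86.

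Rpsa, a small subunit protein also known as the laminin receptor precursor, had lower bounds just above 3-fold in PAR1-/- bladders at 24 h. It had 84, 48, 92, 62 and 11 in the LPS 24 h, LPS 4 h, SP 24 h, SP 4 h and saline pools of PAR1-/- bladders, and 53, 25, 13, 36 and 11 in WT bladders. Both saline values were equal and under background, and each challenged PAR1-/- value lay above its WT partner. The ratio over saline was at least 3.02 after LPS and at least 3.09 after SP at 24 h in PAR1-/- bladders. In WT bladders it was at least 2.51 after LPS at 24 h and at least 1.08 after LPS at 4 h, at least 1.00 after SP at 24 h, and not resolved after SP at 4 h. Since all of these are lower bounds, the WT ratios may be higher than given. Both PAR1-/- bounds fell under 3-fold with arrays shifted to the same median (log2 1.21 for LPS and 1.26 for SP) or with a common floor (1.14 and 1.17).

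Of the other small subunit proteins, Rps24 had the highest mean level. Its intensities were 77, 86, 81, 152 and 25 in the LPS 24 h, LPS 4 h, SP 24 h, SP 4 h and saline pools of PAR1-/- bladders, and 38, 75, 30, 51 and 23 in WT bladders. Every challenged pool was brighter than its saline pool, yet the normalized ratios lay between 0.66 and 1.62. Rps12 likewise lay between 0.74 and 1.5 where both values were above background. Rps2 had a lower bound of 2.21 in WT bladders 4 h after LPS and a ratio of 2.01 in PAR1-/- bladders 24 h after SP, where it reached 111.

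Rps4x, the X-linked small subunit protein, and Naca had normalized ratios that were mostly under 1. Rps4x had 36, 29, 28, 58 and 29 in the LPS 24 h, LPS 4 h, SP 24 h, SP 4 h and saline pools of PAR1-/- bladders, and 15 (under background), 24, 42, 30 and 31 in WT bladders. Its intensity was near the saline value on most arrays, while most challenged arrays were brighter than saline. The normalized ratio was between 0.37 and 0.51 in the PAR1-/- comparisons and 0.29 in WT bladders 4 h after SP. Before normalization the same ratios were between 0.97 and 2.00 and 0.97. With a common floor the log2 ratio 4 h after SP in WT bladders was -1.03, within 3-fold. The other normalized WT ratios were 0.36 after LPS at 4 h, at most 0.49 after LPS at 24 h and 1.42 after SP at 24 h.

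Naca, the alpha subunit of the complex that meets nascent chains at the ribosome, was above background on all arrays. In PAR1-/- bladders its intensities were 25, 57, 123, 154 and 73 after LPS at 24 h, LPS at 4 h, SP at 24 h, SP at 4 h and saline. In WT bladders they were 197, 34, 70, 65 and 90. Before normalization Naca was dimmer than saline on 5 of the 8 challenged arrays and brighter on 3. LPS at 24 h then gave opposite signs in the genotypes, 0.34-fold in PAR1-/- bladders and 2.19-fold in WT bladders. The second is on the array where most probes hold 1 value, and was 1.11-fold after normalization. This difference between the genotypes was not tested. After normalization the ratio was under 1/3 in 5 comparisons: 0.11 after LPS at 24 h, 0.22 after LPS at 4 h and 0.28 after SP at 4 h in PAR1-/- bladders, and 0.14 and 0.16 in WT bladders at 4 h for LPS and SP. Before normalization the same ratios were 0.34, 0.78 and 2.11 in PAR1-/- bladders and 0.38 and 0.72 in WT bladders, so that the SP ratio in PAR1-/- bladders turned and none of the 5 stayed under 1/3. With arrays shifted to the same median that ratio was -1.57 on the log2 scale, just inside 3-fold. The rank of Naca among all probes of an array was lower than after saline except in WT bladders 24 h after LPS (99.5th percentile). It was lowest at the 73.6th percentile in PAR1-/- bladders 24 h after LPS, against the 99.1st after saline, and at the 79.1st in WT bladders 4 h after LPS, against the 99.3rd after saline. On the other challenged arrays it was between the 84.7th and the 98.3rd.

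The 3 probes of Rps29, a zinc-binding protein of the small subunit, did not give a common pattern. Probe H12a4/b4 had 13, 21, 30, 37 and 19 in the LPS 24 h, LPS 4 h, SP 24 h, SP 4 h and saline pools of PAR1-/- bladders, and 33, 108, 11, 175 and 13 in WT bladders. Probe P12a4/b4 had 24, 21, 27, 47 and 15 in PAR1-/- bladders, and 15, 21, 13, 30 and 11 in WT bladders. Probe A02a4/b4 stayed between 10 and 21 on all arrays and was above background on 2. The high values of H12a4/b4 in WT bladders at 4 h, 4.65-fold over saline for LPS and 3.84-fold for SP, had no counterpart in the other probes, which were at 21 and 15 after LPS and at 30 and 13 after SP on the same arrays. The SP ratio fell under 3-fold with arrays shifted to the same median (log2 1.54), both saline arrays as reference (1.55) or a common floor (1.46). Over the 10 arrays the normalized values of H12a4/b4 and P12a4/b4 had a Pearson's r of -0.18, beside a median of 0.27 over all pairs of the members above background on at least 4 arrays, and before normalization they had one of 0.51 beside 0.76. The pairs with A02a4/b4, at -0.32 and 0.13, rest mostly on background values, since that probe was under background on 8 arrays. Each value of Rps29 is given for its probe.

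**Figure D4:**
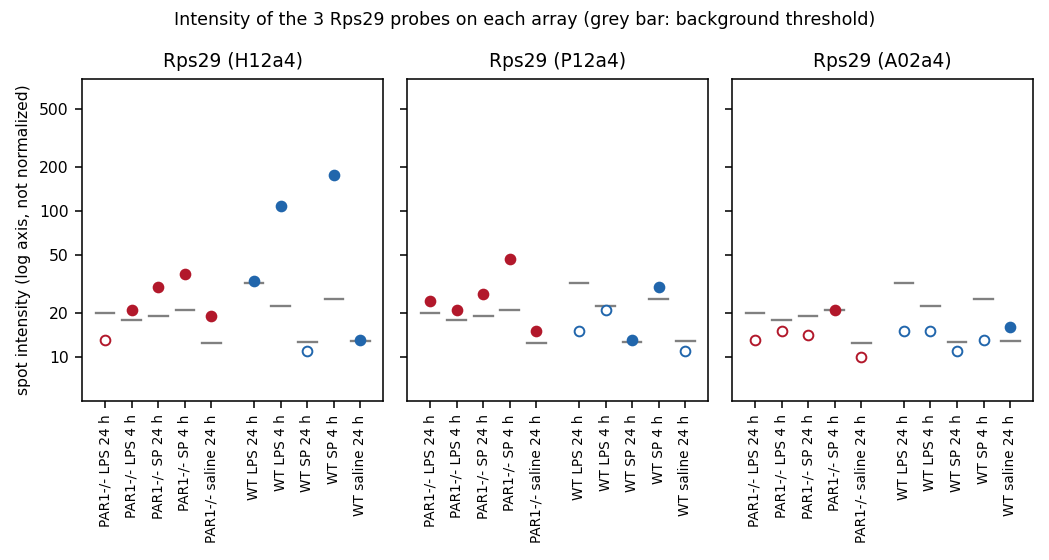
Spot intensity (log axis, not normalized) of the 3 Rps29 probes on each array, PAR1-/- bladders in red and WT bladders in blue; filled points are above and open points under the background threshold, drawn as a grey bar. H12a4/b4 reaches 108 and 175 in WT bladders 4 h after LPS and SP, where the other probes lie between 13 and 30.

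The 2 bright mitochondrial ribosomal proteins, Mrpl39 and Mrpl23 of the large subunit, stood higher after challenge before normalization. Mrpl23 had 50, 77, 57, 116 and 10 in the LPS 24 h, LPS 4 h, SP 24 h, SP 4 h and saline pools of PAR1-/- bladders, and 15, 42, 24, 94 and 13 in WT bladders. Its normalized ratios were lower bounds of 1.95 to 2.76 in PAR1-/- bladders and ratios of 1.79 to 2.23 in WT bladders, with no value after LPS at 24 h in WT. Mrpl39 had 59, 45, 97, 109 and 25 in PAR1-/- bladders and 30, 56, 26, 145 and 18 in WT bladders, which after normalization gave 0.71 to 1.34 and, without the array of LPS at 24 h, 1.54 to 2.20. Mrpl40 was under background on every array and Mrps12 above it only in WT saline bladders.

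Among the regulators of initiation, Eif4ebp2, a repressor of the cap-binding protein, and Eif2ak2, the double-stranded RNA-activated kinase PKR, were both higher than saline on all challenged PAR1-/- arrays. Eif4ebp2 had 44, 73, 82, 115 and 15 in the LPS 24 h, LPS 4 h, SP 24 h, SP 4 h and saline pools of PAR1-/- bladders, and 54, 44, 22, 92 and 17 in WT bladders. Eif2ak2 had 53, 71, 72, 117 and 13 in PAR1-/- bladders and 15, 39, 12, 95 and 15 in WT bladders. All 8 normalized ratios of Eif4ebp2 were above 1, from 1.35 to 2.22, and those of Eif2ak2 were from 1.95 to 2.45 in PAR1-/- bladders and in WT bladders at 4 h 1.40 for LPS and 1.89 for SP. At 24 h in WT bladders Eif2ak2 gave no value after LPS and a ratio of at most 0.80 after SP, where Eif4ebp2 was at 1.83 and 1.35. Eif4ebp1, a paralogue of Eif4ebp2, was between 20 and 51 on the challenged PAR1-/- arrays and between 13 and 36 on the WT ones, against 12 after saline in both. After normalization Eif4ebp1 gave lower bounds of 1.007 after LPS at 24 h and 1.005 after SP at 4 h in PAR1-/- bladders. In WT bladders these bounds were 1.38 after LPS at 4 h and 1.001 after SP at 24 h, and the other comparisons gave no value. The other eIF2 kinases, Eif2ak1, Eif2ak3 and Eif2ak4, were each above background on 1 array. Both elongation probes, Eef1a2, which delivers aminoacyl-tRNA, and Eef2k, the kinase of elongation factor 2, were under background throughout, with intensities of 8 to 16.

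Counts of members beyond 3-fold were small. Of the 55 members, 32 had a ratio or bound in at least 1 of the 8 comparisons with saline, 184 values in all, since a member under background on both arrays gives none. In PAR1-/- bladders the counts were 1 at most in each direction. Rpsa lay above 3-fold 24 h after LPS (1 of 25 with a value, against 1.13% of all probes with a value) and 24 h after SP (1 of 25, against 1.66%), and no member did at 4 h after LPS (0 of 23, against 1.72%) or SP (0 of 24, against 1.26%). Naca lay under 1/3 after LPS at 24 h (against 1.24% of all probes) and at 4 h (against 1.16%) and after SP at 4 h (against 2.17%), and no member did after SP at 24 h (against 1.44%).

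In WT bladders 4 h after LPS, 4 of 28 members with a value (14.3%) lay above 3-fold (Eif3a, Rpl30, the H12a4/b4 probe of Rps29 and Rpl26), against 5.8% of all probes, and 1 lay under 1/3 (Naca), against 1.12%. In WT bladders 4 h after SP, 2 of 22 lay above 3-fold (Rpl30 and the same Rps29 probe), against 4.47% of all probes, and 2 under 1/3 (Naca and Rps4x), against 1.24%. At 24 h in WT bladders none of 12 members after LPS lay above or below (1.61% and 0.247% of all probes), and none of 25 after SP (0.76% and 0.489%). Between the saline arrays, PAR1-/- over WT, none of 21 members differed by more than 3-fold, against 0.938% of all probes above and 0.586% below. The log2 difference of these saline arrays had an SD of 0.47, or 1.38-fold, over 1130 probes, which includes the genotype.

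The members as a group moved little against the array. Their median normalized ratio over saline was between 0.90 and 1.29 in the 8 comparisons, beside 0.89 to 1.08 for all probes with a value. The widest gap was in PAR1-/- bladders 24 h after SP, with a median of 1.29 over 25 members and of 1.00 over all probes. Without normalization the median ratio of the 25 members above background on at least 4 arrays ran from 1.09 to 4.25 over the 8 comparisons. For all probes above background on at least 4 arrays it ran from 1.00 to 4.00. Of the 55 members, 21 (38.2%) exceeded saline on all 8 challenged arrays in intensity before normalization, as did 28.5% of all probes. Values under background were counted here too, such as those of Rpl13, Rpl7 and Rps7, which were under background on all 10 arrays.

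**Figure D5:**
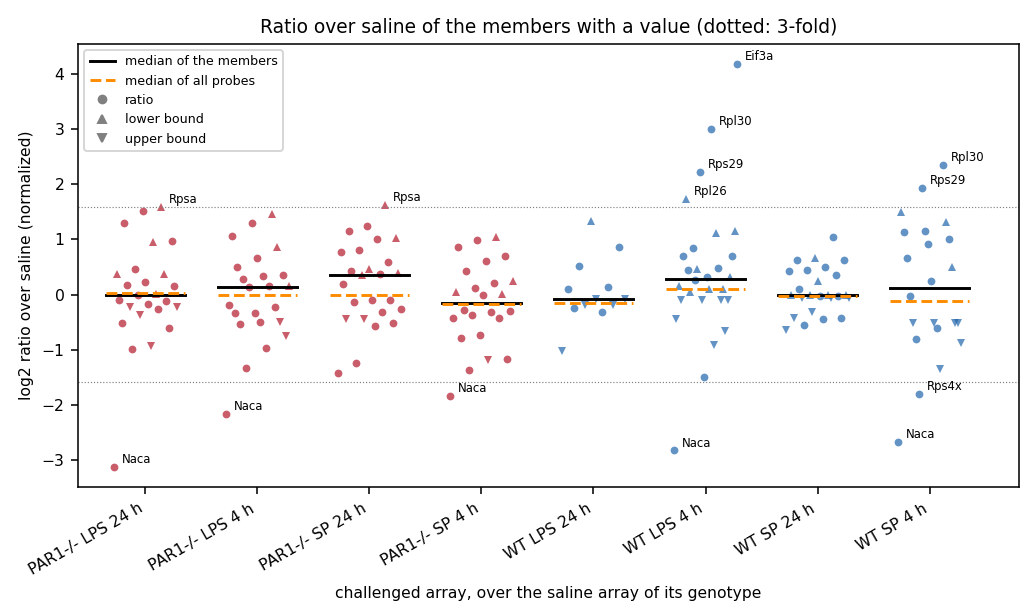
Normalized log2 ratio of the members with a value on each challenged array over the saline array of the same genotype, PAR1-/- comparisons in red on the left and WT comparisons in blue on the right; circles are ratios and triangles bounds, the black line is the median of the members and the dashed line that of all probes. Members beyond 3-fold are named: Eif3a stands highest at a log2 ratio of 4.18 in WT bladders 4 h after LPS, and Naca lowest at -3.12 in PAR1-/- bladders 24 h after LPS.

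The study called a gene PAR1-dependent when it rose over 3-fold in WT bladders after LPS or SP and was not altered in PAR1-/- bladders. With bounds counted like ratios, 4 member probes passed 3-fold on some WT array and lay within 3-fold on all PAR1-/- arrays (Eif3a, Rpl30, Rpl26, by the bound that fell under 3-fold in 3 alternatives, and H12a4/b4 of Rps29), 137 of 4925 probes in all (2.78%). The reverse held for 1 member, Rpsa, also by bounds that 2 alternatives put under 3-fold, and for 0.832% of all probes. Before normalization Eif3a, Rpl30 and Rpl26 also passed 3-fold on PAR1-/- arrays, with up to 4.69, 4.44 and 8.88. H12a4/b4 reached at most 1.95 there, and Rpsa up to 4.82 on WT arrays. Rps29 is on the study's list of PAR1-dependent genes, with no probe named, and Eif3a, Rpl30 and Rpl26 are not. Whether the mean response to challenge differs between the genotypes was tested with limma as an interaction of genotype and challenge, over 2035 probes above background on at least 4 arrays. The mean of the 4 challenged arrays of each genotype was set against its 1 saline array. Agents and times were thus averaged, so the test cannot decide about a response at 1 time only, which the study's criterion admits. It called none of the 25 members tested, nor any other probe (0%). At an unadjusted p under 0.05 it had 1 member, against 3.19% of the probes: the H12a4/b4 probe of Rps29, whose log2 response was 2.06 ± 0.89 (SE) lower in PAR1-/- bladders, with an adjusted p of 0.9997. For Eif3a the same difference was -1.40 ± 1.33, for Rpl30 -1.35 ± 1.30, for Rpl26 -0.10 ± 0.78 and for Rpsa 0.73 ± 0.78.

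The challenged arrays together were also compared with the 2 saline arrays in limma. None of 25 members passed, against 0.0983% of all probes. At an unadjusted p under 0.05 there were 6 members, 4 higher and 2 lower, against 10.5% of all probes. Mrpl23 had a log2 difference of 1.00 ± 0.27 (SE), with a limma adjusted p of 0.247. Rpl26, Eif4ebp2 and Eif2ak2 had differences of 0.87 ± 0.38, 0.73 ± 0.27 and 0.73 ± 0.31, and Naca and Rps4x of -1.77 ± 0.60 and -1.11 ± 0.41, with adjusted p between 0.325 and 0.434. Without normalization 10 of the 25 members passed and all were higher after challenge, namely Mrpl23, Mrpl39, Eif2ak2, Eif4ebp2, Eif3a, Rps2, Rpsa, Rps24, Rpl26 and Rpl6, against 22.3% of all probes. The brightness of the challenged arrays moves with this count, and its part was not tested.

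Between PAR1-/- and WT bladders paired by condition, limma called no member and no probe (0%). Rpsa alone of the members had an unadjusted p under 0.05, which 13.9% of all probes had. Its log2 difference was 0.63 ± 0.24 (SE), with a limma adjusted p of 0.345. The other members ran from -0.86 ± 0.45 for the H12a4/b4 probe of Rps29 to 0.48 ± 0.24 for Eif2ak2.

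Between 24 and 4 h after challenge, none of the 25 members passed and neither did any other probe (0%), while 5 members and 16.1% of all probes had an unadjusted p under 0.05. Rpl30 was at -1.84 ± 0.51 on the log2 scale (SE), 24 h minus 4 h, with a limma adjusted p of 0.299. Rpsa was at 0.84 ± 0.26, Rps18 at 0.71 ± 0.29, Rps15 at 0.67 ± 0.17 and Rps6, the ribosomal target of the S6 kinases, at 0.43 ± 0.17. Without normalization they were at 0.25, 0.04, 0.09 and -0.21 in the same order, each ± 0.50. Rps15 and Rps6 were under background in WT bladders at both times after LPS. Their values there are the thresholds of the arrays, 31.2 at 24 h and 21.1 at 4 h after normalization. Without normalization 2 members passed, against 2.26% of all probes, and both fell. Rpl30 fell by 2.63 ± 0.50 with a limma adjusted p of 8.91e-05, and Eif3a fell by 1.63 ± 0.50 with one of 0.0476.

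Between LPS and SP at the same time and genotype, no member passed in limma and no other probe did (0%). The 2 members with an unadjusted p under 0.05, against 16.8% of all probes, were Rpl30, at a log2 difference of 0.53 ± 0.21 (SE) for LPS minus SP, and Mrpl39, at -0.47 ± 0.17, both with an adjusted p of 0.287.

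Other genes of protein synthesis on the array were 10 of ribosome biogenesis, 4 aminoacyl-tRNA synthetases and 8 of translation control, termination and poly(A) binding. Above background on at least 4 arrays, and so tested with limma, were 4, 2 and 5 of these, and none passed any of the 5 tests. Above 3-fold in WT bladders at 4 h lay 2 of the biogenesis genes after LPS (5.8% of all probes) and 1 after SP (4.47%), and the lists held no other ratio or bound over saline beyond 3-fold. Fbl, the fibrillarin that methylates ribosomal RNA, had 243 in WT bladders 4 h after LPS, against 11 (under background) after saline, a ratio of at least 10.7. Polr1d, a subunit of RNA polymerases I and III, had intensities of 97 for LPS and 189 for SP in WT bladders at 4 h, against 13 for saline, which gave 4.17- and 4.11-fold.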

How the data were processed

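The arrays were 1-colour plastic 5 K mouse arrays (Clontech Atlas), whose spots the authors quantified with AtlasImage. Their methods name robust linear regression as the normalization. The deposited values are scores: over the 10 arrays the log2 scores of each probe average 0 with an equal SD for all probes, which is read from the values and not stated. The design had taken them for normalized intensities. Whole-number intensities were therefore recovered as the smallest integers up to 3000 that give the 10 scores within 5e-05 (log2), accepted where fewer than 0.01 chance matches were expected. The other 105 probes were left out, and a factor common to a probe's intensities cannot be seen. Genes were named from the platform's annotation: 4633 probes with 1 gene, 5 with several and 392 with none. Group labels come from the design text of the series. The submitters give no replicate, so precision is limited by the number of arrays.

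A probe was above background over the mode plus 3 SD of its array. Between arrays, values were scaled with rlm of MASS 7.3-60.0.1, a robust regression of each array's log2 intensities on the mean array over 493 probes above background on all arrays, and lower values were raised to the threshold, so that a ratio with 1 array under background is a bound. limma 3.58.1 (R 4.3.3) tested 2035 probes above background on at least 4 arrays for genotype, time and stimulus (paired by matched condition), challenge and the interaction, with Benjamini-Hochberg adjustment over all of them at 0.05. Of the 55 members, 25 entered and 30 did not. Its residual is variation between conditions, not between replicate pools, so its errors are only as good as the model without further interactions. Recovery and limma were tested on simulated data. The members, gene lists and tests were chosen with earlier results of these data known. Named are members past an adjusted p or beyond 3-fold, the 10 of highest mean level, the 3 of highest level in each role and all probes of Rps29. Others, such as Rps6, Rps15, Rps18, Eif3c and the eIF2 kinases, were named after their values were seen. Alternatives changed the normalization, threshold, floor, filter, reference and arrays.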

Additional observations from a re-analysis of the deposited data

How the results depend on the processing

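Counts beyond 3-fold changed most with the normalization between arrays, and the limma counts of time and stimulus changed most with the filter. Over the 8 comparisons with saline, 8 values of members lay above 3-fold and 6 under 1/3. Without normalization these were 69 and 0, with a shift to the same median 4 and 11, and with a common floor (chosen after seeing the data) 4 above. The share of all probes above 3-fold was 0.76 to 5.8% over the comparisons, and 0.706 to 49.9% without normalization. It was 0.306 to 4.29% with the shift and 0.657 to 6.11% with the common floor. The share of all probes under 1/3 was not counted under the alternatives. The other alternatives stayed within 1.5 times. Median log2 ratios of the members moved by more than the SD between the saline arrays in these cases. Without normalization they were 1.11, 1.00, 1.48 and 1.94 in PAR1-/- bladders (LPS 24 h, LPS 4 h, SP 24 h, SP 4 h), and 1.13, 1.37 and 1.79 in WT bladders after LPS at 24 h, LPS at 4 h and SP at 4 h. Medians of all probes with a value were 0.977 to 1.585 in the same comparisons. With the shift the members were at -0.60, -0.57, -0.29 and -0.66 in PAR1-/- bladders in the same order and at -0.51 in WT bladders 4 h after SP. All probes were at -0.46 to -0.70 there. With no floor the members were at -0.25 and -0.64 at 24 and 4 h after SP and at -0.34 at 4 h after LPS in PAR1-/- bladders, and at -0.50 in WT bladders 4 h after SP. All probes were at -0.24 to -0.66 there. With the common floor the members were at 0.65 in WT bladders 4 h after SP, beside 0 for all probes. Naca 4 h after SP in PAR1-/- bladders turned to a log2 ratio of 1.08 without normalization.

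The limma counts of members follow, with the share of all tested probes called in brackets. Challenge was 10 without normalization (22.3%), 2 with quantile normalization (Naca and Rps4x, 1.87%) and 1 with no filter (0.893%). It was 0 to 1 when 1 array was left out (Rps4x, without the WT array of SP at 24 h, 0.541%). Time was 2 without normalization (2.26%), 1 with quantile normalization (Rpl30, 0.344%) and 2 with an intensity trend (Rpl30 and Rps15, 8.3%). It was 1 without a floor (Rpl30, 0.688%, chosen after seeing the data). With no filter, time was 35, or 63.6% of the members against 63.4% of all probes. Stimulus was 33 with no filter, or 60% of the members against 65.7% of all probes. The unfiltered counts include members under background on every array, whose values are the arrays' own thresholds. Genotype was 1 with the shift (the H12a4/b4 probe of Rps29, 5.55%), and the interaction was 1 with the common floor (Eif4a2, 3.78%). Every count was 0 without the WT array of LPS at 24 h, also when that array was left out of the normalization. The interaction cannot be estimated without either saline array. Rps6 in the time test was at -0.21 without normalization and -0.28 on the deposited scores, Rps4x in the challenge test at 0.17 and 0.019, and Rpl30 in the stimulus test at -0.017 on the scores and -6.00 percentile points on ranks. Of 441 values of named members under alternatives, 20 newly passed a limma threshold, 7 turned, and 18 ratios moved by more than the SD between the saline arrays. The mean correlation of the Rps29 probes was -0.13, and 0.41 on the deposited scores, which are not normalized between arrays. The median level percentile did not move beyond its spread over the arrays. The cause of these changes was not tested. The limma tests of genotype, time and stimulus pair matched conditions. Beyond these matched conditions no pools or mice are paired, since each condition has 1 array.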
